A study of Mus musculus with 6 samples.

Results

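The cytosolic ribosomal proteins are the protein parts of the ribosomes that translate nuclear-encoded mRNAs. Their genes were taken as the rows whose symbol is Rpl, Rps or Rplp followed by a number and at most the suffix a, x, l or l1, together with Rpsa, leaving out symbols that mark a pseudogene with -ps. The rule found 84 of 24444 gene symbols in the deposited table. The data are poly(A) RNA-seq of the telencephalon, from which the cortex and the basal ganglia develop, in C57BL/6J mouse embryos at E12.5. There are 3 libraries of wild-type embryos and 3 labelled Arl13b-/-, here wild-type 1 to 3 and Arl13b-null 1 to 3. The product of Arl13b is a GTPase found in primary cilia, and the series concerns neuronal cilia and axon tracts. The labels give neither the mutant allele nor whether a library is 1 embryo or a pool, so p-values measure the spread between these libraries only.

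A ribosome has a small subunit, which reads the mRNA, and a large subunit, which joins amino acids. The Rps genes encode proteins of the small subunit and the Rpl genes those of the large one, and Rplp0, Rplp1 and Rplp2 encode the stalk on the large subunit that recruits elongation factors. Many of their mRNAs start with a run of pyrimidines, the terminal oligopyrimidine (TOP) element, through which mTOR and Larp1 control their translation. Cells that grow and divide make many ribosomes.

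By role, the 84 symbols held 43 large-subunit genes, 3 stalk genes, 30 small-subunit genes and 8 with the suffix l or l1, which are paralogs or copies of another member. RefSeq lists 83 as protein-coding and Rps4l as a transcribed pseudogene. Of these, 80 passed the filter on low values (a mean at least 1 log2 unit above that of a zero count) and were tested. The other 4, Rpl10l, Rpl3l, Rpl39l and Rpl32l, were all paralogs or copies. The rule leaves out Rps3a1 and Rpl36al by their spelling, and Fau, which encodes a ribosomal protein fused to a ubiquitin-like part.

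The starts of member genes show how far the family shares the TOP element. Of the 84 symbols, 63 were found in the RefSeq promoter table (GRCm38.p6), with 75 annotated starts. A run of at least 6 pyrimidines that begins with C within 10 bases of the start, on the transcribed strand, was present at 36 of 75 member starts, or 48.0%, against 19.2% of all 32851 starts in that table. The reverse complement of such a run near the start was present at 5.33% of member starts and 22.0% of all. In the 300 bases around each start, CCGGAA, a core of ETS family sites, was found on either strand at 46.7% of member starts and 14.9% of all, and the E-box CACGTG at 10.7% and 7.15%. The windows below run from 20 bases before to 10 bases after the annotated start. They are shown for members whose values stand apart below and for a paralog pair, with the run in capitals. Where a longer run begins further upstream, only its part from a C within 10 bases of the start was counted and marked.
Rps6 (chr4:86857358-86857387, minus strand): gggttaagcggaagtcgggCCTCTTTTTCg
Rps18 (chr17:33955656-33955685, minus strand): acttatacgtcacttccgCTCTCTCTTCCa
Rpl38 (chr11:114668560-114668589, plus strand): ccggaagcggaagcctcgttCTTTCCCCgt
Rpl15 (chr14:18270977-18271006, minus strand): ggattgtgggagaaagCCTTCTTCCTTTCC
Rpl26 (chr11:68901546-68901575, plus strand): gagatctcgcggcaacttacagaaccggaa
Rpl41 (chr10:128549159-128549188, minus strand): gacgacacacgggccggctcggaagtgacg
Rps27 (chr3:90213639-90213668, minus strand): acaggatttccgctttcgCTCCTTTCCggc
Rps27l (chr9:66946066-66946095, plus strand): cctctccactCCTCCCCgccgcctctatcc

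Rps6, Rps18, Rpl38, Rpl15 and Rps27 have the run at or across the annotated start, and Rpl26 and Rpl41 have none in this window. Rps27l has its run before the start, as the inner part of a longer run, and a further annotated start downstream without one. The run was set beside the expression values below. The median difference between Arl13b-null 1 and 3 and wild-type 2 and 3 was 0.12 on the log2 scale for 31 members with it and 0.10 for 25 without. These are the members, paralogs aside, that the promoter table holds. The difference between these medians was not tested, and the starts used in these embryos were not measured.

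The libraries were of unequal kind. The deposited values are on a variance-stabilised log2 scale, which is the scale of every difference below. Undoing the transformation gave normalized counts, listed below in the order of replicates 1, 2 and 3, and the value of 1 read in each library gave an estimated depth of 27560000 to 51690000 reads. Wild-type 1 and Arl13b-null 2 stood apart. Mki67, a proliferation marker, stood at 3596 normalized counts in the first and 102 in the second, against 13025 to 16521 in the others. Stmn2, a neuronal microtubule regulator, had 33432 and 124880 there, against 12869 to 14020. Within groups, the Pearson correlation across genes, which are not independent replicates, was 0.995 between wild-type 2 and 3 and between Arl13b-null 1 and 3, and 0.702 to 0.898 for pairs with either of the other libraries. Both libraries enter the comparison of all 6 and are left out of the comparison of 4. The 4 were chosen with these values known. Arl13b itself had 553 to 661 normalized counts in wild-type libraries and 492 to 564 in Arl13b-null ones, so its gene-level value does not check the labels.

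Ribosomal protein genes were abundant in every library. The 84 genes together took 2.12%, 2.81% and 2.72% of all normalized counts in the wild-type libraries. Their shares were 2.94%, 1.62% and 2.83% in those labelled Arl13b-/-. The 95% Wilson interval from estimated reads was 2.113% to 2.121% for wild-type 1 and 1.612% to 1.621% for Arl13b-null 2, the shallowest, and covers counting error only. The wild-type mean was 2.55% ± 0.38 (SD, n = 3) and the Arl13b-null mean 2.46% ± 0.73 (SD, n = 3), a difference within the spread of either group. Wild-type 1 and Arl13b-null 2 had the lowest shares, and among the other 4 libraries both Arl13b-null shares lay above both wild-type shares. The totals were unequal: all normalized counts summed to 36180000 in Arl13b-null 2 and to 27480000 to 29150000 in the other libraries. The 84 genes themselves summed to 586300 in wild-type 1 and 584800 in Arl13b-null 2, so the shares of these 2 libraries differ mainly through the total.

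Per length, Rplp2 and Rplp0 of the stalk were among the most abundant members. Normalized counts per kilobase of transcript, from GENCODE M21 lengths and averaged over the 6 libraries, were 32496 for Rplp2, 28908 for Rps15 of the small subunit, 25951 for Rpl8 and 23398 for Rpl32 of the large subunit. Rplp0, whose product anchors the stalk, had 22409 and Rpl41, which encodes the shortest member at 25 codons, had 22169. The lowest genes that are not paralogs were Rpl39 at 2010 and Rpl26 at 2293 per kilobase. These levels depend on the transcript chosen, and many members have processed copies of nearly the same sequence in the genome, so reads may be split between a gene and its copies. Among the copies listed by name, Rpl34-ps1 had a mean of 1255 normalized counts, against 3115 for Rpl34, and Rpl14-ps1 had 634. Rps27rt, a retrogene of Rps27, had 3900, close to the 4667 of Rps27, and these levels are uncertain.

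**Figure D1:**
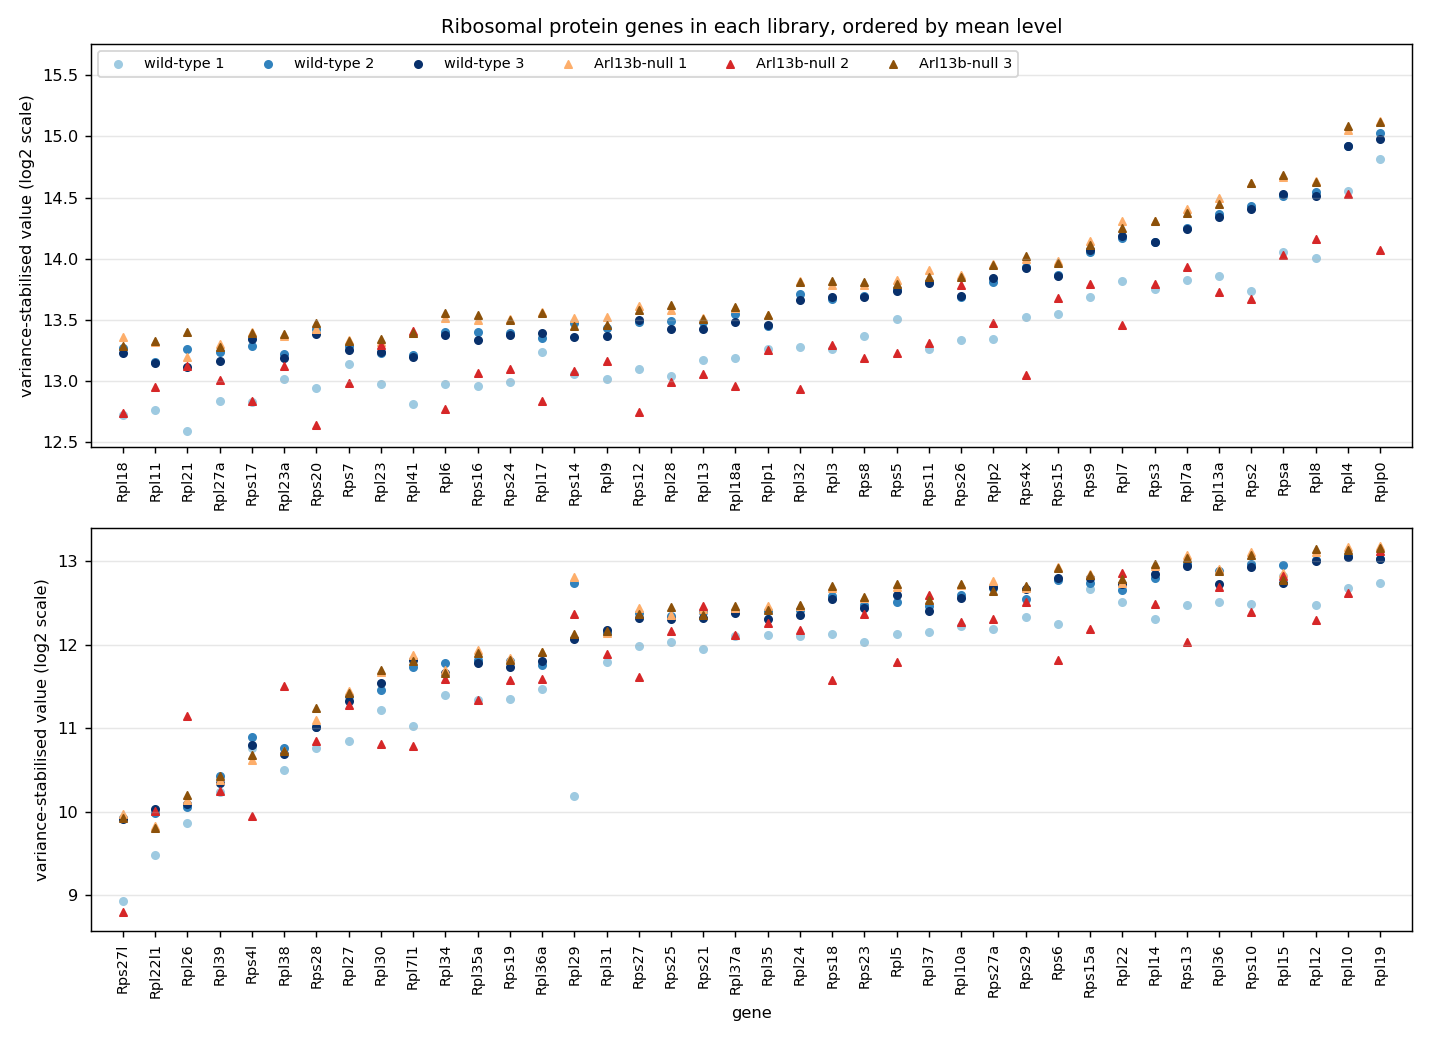
Variance-stabilised value (log2 scale, y axis) of the 80 tested ribosomal protein genes (x axis, ordered by mean level, higher in the upper panel), with 1 point per library: circles wild-type 1 to 3, triangles Arl13b-null 1 to 3. Light blue (wild-type 1) and red (Arl13b-null 2) points lie under the others for most genes, and Rpl26 and Rpl38 have the red point on top.

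The first comparison asks which ribosomal protein transcripts differ in telencephalon labelled Arl13b-/-. Over all 6 libraries no member passed. In limma, 0 of 80 had an adjusted p under 0.05 and 0 an unadjusted p under 0.05, against 0.0% and 1.14% of 14249 genes tested (1.03% lower and 0.112% higher). The differences were small against their errors: the median was 0.08 on the log2 scale, with 59 of 80 members above 0, beside a median of 0.0026 and 50.2% above and 49.8% below 0 for all genes tested. Most members are highly expressed. Among the 5703 genes with a mean level at or above that of the lowest member, paralogs aside, the median was 0.07 and 59.0% were above 0. The sign for the members does not hold up. Their median was −0.10 with 16 of 80 above 0 after quantile normalization, against 55.3% of all genes above 0 under that setting. Without wild-type 1 it was −0.05 with 22 of 80 above 0, against 48.4% of all genes. Without Arl13b-null 2 it was 0.24, with 77 of 80 above 0, against 54.5%. On simulated data, the fit of 6 libraries recovered 0% of genes changed by 0.5 log2 units and 2.5% of those changed by 1, so differences of the size seen here are not detectable with these libraries.

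The groups did not overlap for 8 of 80 members over the 6 libraries, against 8.26% of all genes, a share near the background. Higher in every Arl13b-null library were 7 members, against 4.67% of all genes: Rpl19, Rpl22, Rpl23, Rpl26, Rpl37, Rpl41 and Rps26. Rpl41 had wild-type counts of 7120, 9441 and 9331 and Arl13b-null counts of 10698, 10840 and 10698. Its groups were separate, with the Arl13b-null libraries close together, and the difference was 0.33 ± 0.18 (SE; limma adjusted p = 0.990). Rps26, a small-subunit protein near the mRNA exit, had wild-type counts of 10268, 13091 and 13169 and Arl13b-null counts of 14874, 14038 and 14690, a difference of 0.26 ± 0.18. Rpl19 differed by 0.23 ± 0.16, Rpl37 by 0.21 ± 0.16 and Rpl26 by 0.49 ± 0.32 (limma adjusted p = 0.990 for each). After quantile normalization the differences were 0.12 for Rpl41, 0.029 for Rps26, 0.034 for Rpl19, 0.051 for Rpl37 and 0.45 for Rpl26. Without Arl13b-null 2, Rpl26 fell to 0.16, while the others named here ran from 0.20 to 0.32.

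Rps4l was the 1 member whose wild-type values were all higher, against 3.59% of all genes. This copy of Rps4x had wild-type counts of 1668, 1832 and 1713 and Arl13b-null counts of 1502, 919 and 1565. The difference was −0.41 ± 0.25 over 6 libraries (limma adjusted p = 0.990) and −0.20 ± 0.059 over 4 (adjusted p = 0.241). Rps4x itself, the X-linked small-subunit gene, had wild-type counts of 11694, 15579 and 15496 and Arl13b-null counts of 16336, 8387 and 16575. Its groups overlapped, with low values in the same pair of libraries that stood apart. In all, 21 members had differences below 0 over 6 libraries. After Rps4l, those with the smallest p were Rplp0 (−0.17 ± 0.34), Rps15a (−0.11 ± 0.23), Rps4x (−0.10 ± 0.33) and Rps27 (−0.09 ± 0.28), and each turned positive without Arl13b-null 2.

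The family was low in wild-type 1 and Arl13b-null 2. Taking the average of wild-type 2 and 3 as 0, the median member lay at −0.38 in the first and −0.33 in the second of these, against −0.05 and −0.09 for all genes tested. For the 5703 genes at or above the level of the lowest member, paralogs aside, these medians were −0.13 and −0.006. In wild-type 1, 78 of 80 members were below each of the 4 other libraries considered (wild-type 2 and 3, Arl13b-null 1 and 3), against 46.7% of all genes. Rpl15 and Rps4l were the exceptions. In Arl13b-null 2, 67 of 80 were below each of these 4, against 49.5% of all genes, and 66 were below them in both libraries, against 35.1%. Of the 5703 genes at or above the lowest member's level, 3128 lay below these 4 in wild-type 1 and 2742 in Arl13b-null 2. These are descriptions of single libraries, 1 of each genotype, with no test. In bulk tissue, fewer cells of a type and less RNA per cell cannot be told apart.

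**Figure D2:**
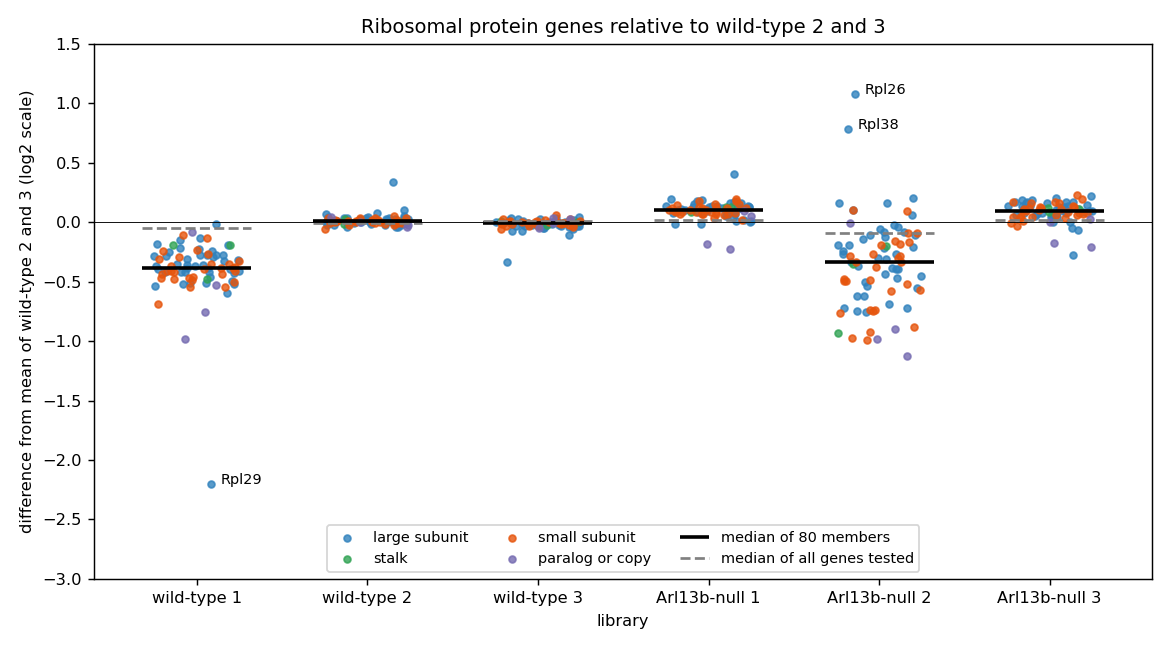
Difference of each of the 80 tested members from the mean of wild-type 2 and 3 (log2 scale, y axis) in each library (x axis), coloured by role, with the median of the members (black line) and of all genes tested (dashed). The medians lie at −0.38 for wild-type 1, at −0.33 for Arl13b-null 2 and at 0.10 for both other Arl13b-null libraries.

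The members, like all genes tested, were spread more widely in these libraries than in the others. The SD of the members' differences was 0.25 (wild-type 1) and 0.37 (Arl13b-null 2), against 0.076 and 0.086 in Arl13b-null 1 and 3. For all genes tested it was 0.87 and 1.65, against 0.24 and 0.33, so the members were spread less than all genes in each of these libraries. For the small-subunit genes alone it was 0.12 in wild-type 1. In wild-type 1 the lowest was Rpl29, at −2.21, followed by Rps27l at −0.98. Rps6, the substrate of the S6 kinases, had wild-type counts of 4786, 6919 and 7074 and Arl13b-null counts of 7758, 3520 and 7689. Rps18, at the head of the small subunit, had 4406, 6064 and 5916, and 6498, 2977 and 6566. Rplp0 had 28704, 33307 and 32220, and 35767, 17117 and 35470. For these 3 genes Arl13b-null 2 was the lowest library, with differences of −0.98, −0.99 and −0.93 from the mean of wild-type 2 and 3.

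Against this, 6 members were highest in Arl13b-null 2, or 7.5% against 43.5% of all genes: Rpl22, Rpl26, Rpl37, Rpl38, Rpl41 and Rps21. Rpl26, a large-subunit protein near the exit of the peptide tunnel, had wild-type counts of 860, 992 and 1024 and Arl13b-null counts of 1054, 2200 and 1105. Rpl38, a large-subunit protein known for its role in Hox mRNA translation, had 1382, 1664 and 1580, and 1631, 2835 and 1623. In both genes Arl13b-null 2 stood alone, 1.08 and 0.78 above the mean of wild-type 2 and 3 on the log2 scale, while the other 5 libraries lay within a narrow range. The other 4 of the 6 genes differed there by 0.10 (Rps21) to 0.21 (Rpl41). Rpl36al, outside the rule, was also highest in Arl13b-null 2, with 2051 normalized counts against 1211 to 1758 elsewhere. Rps3a1 was lowest there, with 4860 against 7004 to 10397.

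The shortest members lay closer to wild-type 2 and 3 than the longest did in Arl13b-null 2. The median difference from wild-type 2 and 3 there was −0.19 for the 19 shortest members (271 to 517 bases) and −0.55 for the 19 longest (975 to 3706 bases), paralogs left out. In wild-type 1 the same medians were −0.36 and −0.41. Across the 76 members the Pearson correlation of the difference with log2 transcript length was −0.35 in Arl13b-null 2 and −0.06 in wild-type 1, which is weak. The Spearman correlations were −0.34 and −0.22. With mean level over the 6 libraries in place of length, the Pearson correlations were −0.44 and −0.03. Lengths depend on the transcript chosen: Rps20, of 119 codons, was given 3706 bases. These are descriptions across genes of 1 library each. The members share each library and its depth. Arl13b-null 2 was also the library of lowest estimated depth, and the part of depth or RNA quality was not tested.

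The summed markers of each cell type lay outside the range of the other 4 libraries in wild-type 1, in Arl13b-null 2 or in both. The summed level of 10 markers of dividing cells was 17346 normalized counts (wild-type 1) and 1912 (Arl13b-null 2), against 67896 to 78890 in the other 4 libraries, and none of the 10 was at 0 in any library. The 10 neuronal markers summed to 292670 and 716460, against 140410 to 148650, and all 10 were highest in Arl13b-null 2 among it and those 4. The 8 red blood cell markers summed to 8622 and 79.3, against 57999 to 293280, with Hbb-y, Hbb-bh1 and Hba-x among those at 0 in Arl13b-null 2. The 8 radial glia markers summed to 41414 and 3506, against 98128 to 124320. The 10 surface ectoderm markers summed to 14601 and 214, against 120 to 3703, with Krt5 and Krt8 at 0 in Arl13b-null 2 and Krt14 at 0 in Arl13b-null 3. Mesenchyme markers (8) summed to 26061 and 596, against 25731 to 70411, endothelium markers (6) to 7557 and 482, against 5557 to 7766, and microglia markers (6) to 1475 and 158, against 924 to 1231. The part of cell makeup in the levels of ribosomal protein genes was not tested.

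**Figure D3:**
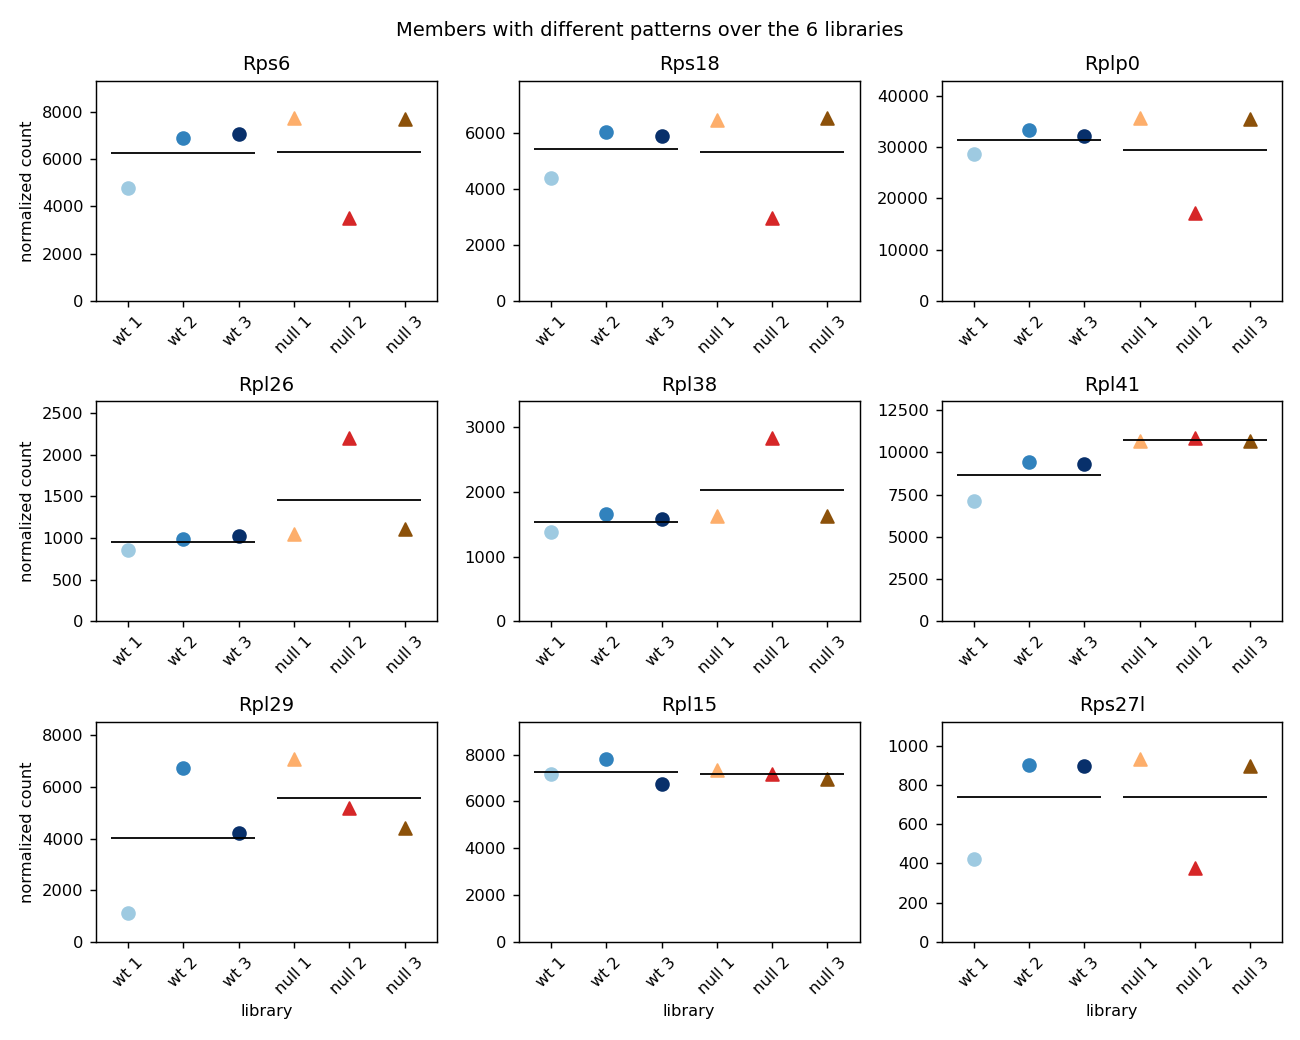
Normalized counts (y axes, from 0) of 9 members in each library (x axes, wt for wild-type and null for Arl13b-null), with the mean of each group as a line. Rps6, Rps18 and Rplp0 are lowest in Arl13b-null 2, Rpl26 and Rpl38 highest there, and Rpl41 is higher in all 3 Arl13b-null libraries. Rpl29 is low in wild-type 1, Rps27l is low in wild-type 1 and Arl13b-null 2, and Rpl15 varies least of the 9.

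Rpl29 varied most, and Rpl39 and Rpl15 least. Rpl29, a large-subunit protein, had wild-type counts of 1102, 6751 and 4211 and Arl13b-null counts of 7103, 5197 and 4404. The groups overlapped, and the difference was 0.77 ± 0.67 over 6 libraries and 0.07 ± 0.29 over 4. Its range over the libraries was 2.62 on the log2 scale, against 0.20 for Rpl39, 0.21 for Rpl15 and 0.29 for Rplp1. Rpl15, at the core of the large subunit, had wild-type counts of 7192, 7833 and 6742 and Arl13b-null counts of 7352, 7162 and 6951. It is 1 of the exceptions to the low level of the family in wild-type 1.

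Among the 4 libraries without wild-type 1 and Arl13b-null 2, most members were slightly higher in Arl13b-null and none passed the test. The median difference of the 80 members was 0.10 on the log2 scale, with a range of −0.20 to 0.20, against 0.02 for all genes. Of the 80, 75 were above 0, against 58.8% of all genes, and 5 below, against 41.2%. The groups did not overlap for 67 members, against 47.5% of all genes. Among these, 65 had both Arl13b-null values above both wild-type values, against 29.3% of all genes. For 2 members, Rpl22l1 and Rps4l, the groups were separate in the other direction, against 18.1%. Among the 5703 genes at or above the level of the lowest member, paralogs aside, the median was 0.04 and 69.4% were above 0. Of these 5703, 2089 were higher and 653 lower without overlap. In limma, 0 of 80 members passed an adjusted p of 0.05, against 0.253% of all genes, and the smallest was 0.166. At an unadjusted p under 0.05 there were 32 members, against 14.4% of all genes: 30 higher, against 8.08%, and 2 lower, against 6.33%. On simulated data this fit recovered 0% of genes changed by 0.1 and 52.5% of those changed by 0.5.

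How the libraries are scaled bears on these counts. After quantile normalization the median difference was 0.036, and 67 of 80 members were above 0, against 53.6% of all genes. With that scaling 30 members were higher without overlap, against 25.4% of all genes. At an unadjusted p under 0.05 there were then 3 higher members, against 7.15% of all genes, and 2 lower. After centring there were 24 higher, against 6.93%, and 2 lower. Centring each library on its median left 58 members higher without overlap, against 25.1%. Each Arl13b-null library lay above wild-type 2 and 3 for most members, 72 of 80 in Arl13b-null 1 (44.1% of all genes) and 66 in Arl13b-null 3 (44.8%). Differences between members were not tested.

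**Figure D4:**
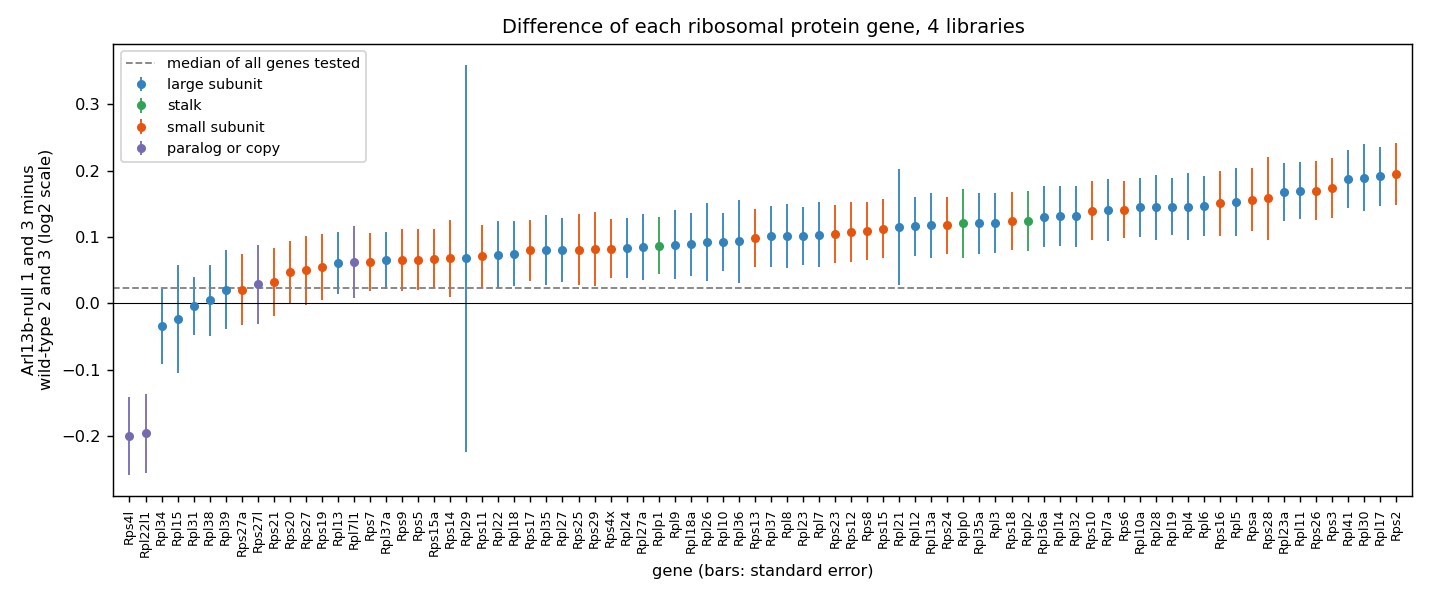
Difference between the means of Arl13b-null 1 and 3 and of wild-type 2 and 3 (log2 scale, y axis) for each of the 80 tested members (x axis, sorted), with limma standard errors as bars and colours for roles. All but 5 members lie above 0, between −0.20 for Rps4l and 0.20 for Rps2, and the dashed line at 0.02 is the median of all genes tested.

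Of the small-subunit genes 30 of 30 were above 0 over the 4 libraries, with a median of 0.09. Among all genes 58.8% were above 0, and 69.4% of the 5703 genes at or above the lowest member's level. The members share the same 4 libraries and are not independent of each other. Rps2, which lines the path of the mRNA into the ribosome, had 22053 and 21684 normalized counts in wild-type 2 and 3 and 25036 and 25050 in Arl13b-null 1 and 3, a ratio of means of 1.15. Its difference of 0.20 ± 0.047 (SE; limma adjusted p = 0.183) had the largest size among the members above 0. In the libraries that stood apart it had 13580 (wild-type 1) and 13011 (Arl13b-null 2). Rpsa, also known as the laminin receptor, had 23332 and 23591, and 26029 and 26276, a difference of 0.16 ± 0.047. Rps6 differed by 0.14 ± 0.044, and Rps19, the gene most often mutated in Diamond-Blackfan anaemia in humans, by 0.05 ± 0.050.

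Of the large-subunit genes 40 of 43 were above 0, against the same 58.8% of all genes, with a median of 0.10. Rpl41 had the smallest p of all members, with a difference of 0.19 ± 0.043 (limma adjusted p = 0.166), followed by Rpl17 at 0.19 ± 0.045 (adjusted p = 0.174). Rpl11 and Rpl5, which together bind a small ribosomal RNA and, when free, the p53 regulator Mdm2, differed by 0.17 ± 0.043 and 0.15 ± 0.051 (adjusted p = 0.196 and 0.281). Rpl11 had 9086 and 9028 normalized counts in wild-type 2 and 3 and 10174 and 10222 in Arl13b-null 1 and 3, with no overlap. Rpl4, the most abundant large-subunit gene by count, differed by 0.15 ± 0.050, Rpl3, near the catalytic centre, by 0.12 ± 0.045, and Rpl10, which joins the large subunit late, by 0.09 ± 0.044. Values at or below 0 belonged to Rpl34 (−0.035 ± 0.056), Rpl15 (−0.024 ± 0.081) and Rpl31 (−0.004 ± 0.044). The 3 stalk genes lay at 0.12 ± 0.052 for Rplp0, 0.09 ± 0.043 for Rplp1 and 0.12 ± 0.045 for Rplp2.

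The 4 libraries also differ in sex-linked transcripts with genotype. Xist, the RNA that coats the silenced X chromosome, had 26.5 and 213 normalized counts in wild-type 2 and 3 and 16292 and 19017 in Arl13b-null 1 and 3, and Ddx3y, on the Y chromosome, had 1093 and 1258 against 0 and 1.23. Wild-type 1 had 15101 of Xist and 0.537 of Ddx3y, and Arl13b-null 2 had 244 and 0. Sex and genotype cannot be told apart here. The 4 X-linked members, Rpl10, Rpl36a, Rpl39 and Rps4x, lay between 0.02 and 0.13, with a median of 0.09, within the range of the other members. Red blood cell markers moved with the same contrast: 8 genes summed to 57999 and 74868 normalized counts in wild-type 2 and 3 and to 105720 and 293280 in Arl13b-null 1 and 3, with all 8 above 0 and none of them at 0 in these libraries. Their median difference was 1.30, and all 8 were higher at an unadjusted p under 0.05 in limma. Surface ectoderm markers moved the other way, 3703 and 1626 against 633 and 120, with all 10 below 0 and 9 at an unadjusted p under 0.05. Among all genes, 58.8% were above 0 and 41.2% below, with 8.08% higher and 6.33% lower at that p in limma. Of 8 mesenchyme markers 0 were above 0, with a median of −0.65 and 3 lower at that p. Radial glia markers had 6 of 8 above 0, with a median of 0.17, 4 higher and 1 lower at that p. Endothelium markers had 5 of 6 above 0, with a median of 0.27 and 2 higher, and microglia markers 5 of 6, with a median of 0.17 and 3 higher. Neuronal markers had 9 of 10 above 0, with a median of 0.07 and 2 higher, and markers of dividing cells 8 of 10, with a median of 0.10 and 1 higher. Their part in the difference of ribosomal protein genes was not tested.

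The 4 tested paralogs were low in wild-type 1 and Arl13b-null 2, with medians of −0.64 and −0.94 and 3 of 4 below the other 4 libraries in each. Over the 4 libraries 2 were above 0 and 2 below. Rpl22l1, the paralog of Rpl22, had wild-type counts of 648, 944 and 980 and Arl13b-null counts of 837, 959 and 826. Over the 4 libraries its groups were separate and the difference was −0.20 ± 0.059 (limma adjusted p = 0.251), while Rpl22 had 6373 and 6706 against 6750 and 7013, a difference of 0.07 ± 0.050. Over 6 libraries Rpl22l1 overlapped, at 0.04 ± 0.23. Rps27l, known as a p53 target, had wild-type counts of 422, 900 and 896 and Arl13b-null counts of 935, 377 and 900. In wild-type 1 and Arl13b-null 2 it lay at −0.98 and −1.12 from the mean of wild-type 2 and 3, and Rps27 at −0.37 and −0.74. The difference between these genes was not tested. Rpl7l1, a homologue of Rpl7 that acts in ribosome assembly, had 2008, 3334 and 3527, and 3675, 1703 and 3497. Rpl7 had 14354, 18327 and 18564, and 20216, 11187 and 19439. Both were low in the same libraries and differed by less than 0.11 over the 4.

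The untested paralogs were at or near the limit of detection. Rpl10l, a copy of Rpl10 known from the testis, was listed at 0 in all 6 libraries, where a count of 0 allows up to 3 reads, or 0.058 to 0.11 CPM. Rpl3l, the muscle form of Rpl3, had at most 2.45 normalized counts, against 9766 to 14356 for Rpl3. Rpl39l, a copy of Rpl39, had wild-type counts of 17.5, 5.92 and 3.89 and Arl13b-null counts of 2.17, 0 and 5.48, against 1133 to 1308 for Rpl39. Rpl32l had 2.1 to 22.2, against 7772 to 14406 for Rpl32. At these counts no difference between groups was detectable.

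Other genes of ribosome production were set beside the family. None of the genes in 5 further lists passed an adjusted p of 0.05 in limma, over 6 or 4 libraries, or an unadjusted p of 0.05 over 6. Over the 4 libraries the counts below stand against 58.8% of all genes above 0, and 8.08% higher and 6.33% lower at an unadjusted p under 0.05. Over 6 libraries they stand against 50.2% of all genes above 0. Whether a list differs from the ribosomal proteins or from all genes was not tested. The list of other TOP and ribosome-bound genes, such as the elongation factors and Rack1, had 21 of 21 above 0 over the 4 libraries, with a median of 0.10, and 4 of 21 were higher at an unadjusted p under 0.05. Over 6 libraries the median was 0.06, with 14 above 0. Its median was −0.35 in wild-type 1 and −0.39 in Arl13b-null 2. Examples are Eif4b, an initiation factor, at 0.19 ± 0.052 (SE; limma adjusted p = 0.215), Pabpc1, the poly(A)-binding protein gene, at 0.32 ± 0.11 and the elongation factor gene Eef2 at 0.19 ± 0.070. Of 51 ribosome assembly genes, 43 were above 0 over the 4 libraries, with a median of 0.05 and 2 higher at an unadjusted p under 0.05, a smaller share than among all genes. Over 6 libraries the median was 0.10, with 35 above 0. Npm1, a nucleolar chaperone, had wild-type counts of 9110, 17240 and 18060 and Arl13b-null counts of 19534, 7837 and 21301, lowest in Arl13b-null 2 and next lowest in wild-type 1, as Rps6 was.

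Mitochondrial ribosomal proteins were mostly high in Arl13b-null 2, where the cytosolic ones were mostly low. Their 78 genes had a median of 0.40 there, with 54 above each of wild-type 2 and 3 and Arl13b-null 1 and 3, against 43.5% of all genes. The cytosolic members had a median of −0.33 there. In wild-type 1 both families were low, with medians of −0.39 and −0.38. Over the 4 libraries 56 of 78 were above 0, with a median of 0.04, 4 higher and 1 lower at an unadjusted p under 0.05. Over 6 libraries 74 of 78 were above 0, against 50.2% of all genes, with a median of 0.25. Mrpl35 had wild-type counts of 632, 479 and 739 and Arl13b-null counts of 272, 732 and 278, a difference of −0.96 ± 0.18 over the 4 libraries (limma adjusted p = 0.127) and −0.58 ± 0.41 over 6 (adjusted p = 0.990). Among 15 regulators, which include Myc genes and mTOR components, 9 were above 0, with a median of 0.03 and 1 higher at an unadjusted p under 0.05, and over 6 libraries 9, with a median of 0.12. Mycl was higher in every Arl13b-null library, with 7125, 7719 and 7501 normalized counts against 5322, 6059 and 5979, a difference of 0.28 ± 0.048 over the 4 (limma adjusted p = 0.109) and 0.36 ± 0.15 over 6 (adjusted p = 0.990). The 16 p53 targets tested, which respond when ribosome assembly is disturbed, had a median of 0.02, with 10 above 0, 1 higher and 2 lower at an unadjusted p under 0.05, and over 6 libraries 8 were above 0. The counts of regulators and p53 targets lie near the shares of all genes. Btg2, on that list and also a gene of neurogenic progenitors, had 1044, 3714 and 3772, and 4577, 107 and 5202.

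**Figure D5:**
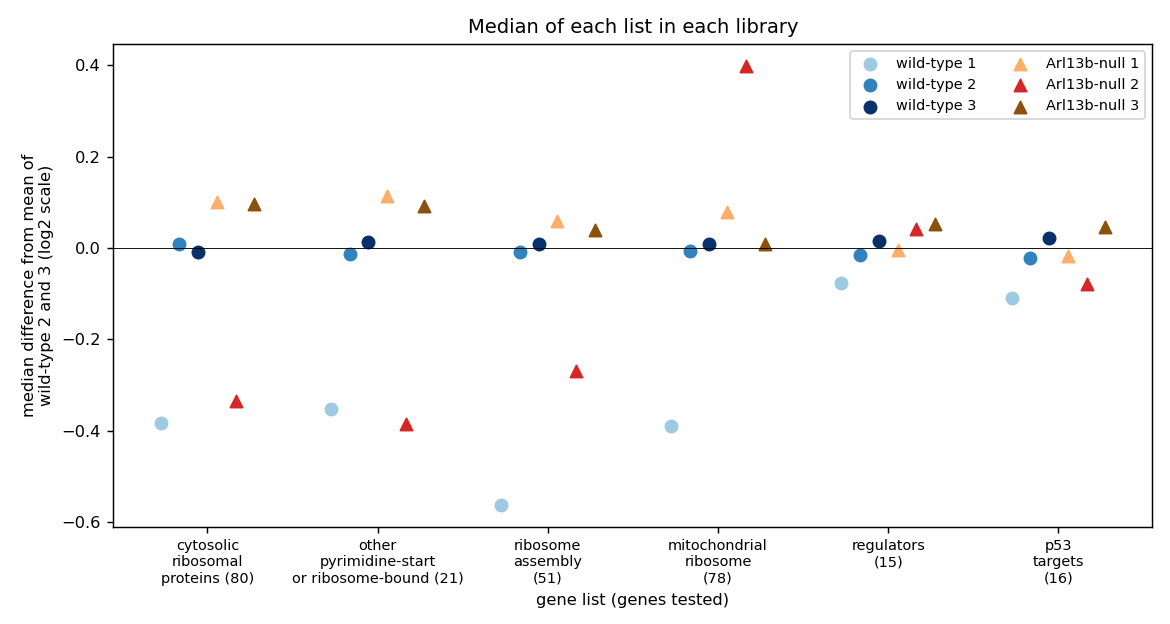
Median difference from the mean of wild-type 2 and 3 (log2 scale, y axis) in each library for the tested ribosomal protein genes and 5 further lists (x axis, number of genes tested in brackets). Arl13b-null 2 lies at −0.33 for cytosolic ribosomal proteins and at 0.40 for mitochondrial ones.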

How the data were processed

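The deposited table holds variance-stabilised values for 24444 gene symbols in 6 libraries, which the authors put on a log2 scale. The submitters' processing notes list STAR 2.6.0, Salmon 0.9.1, CASAVA, DESeq2, DESeq 1.16.1 and the build mm9, without saying what each did. The lowest value, 5.13, is that of a zero count and fixes the constant needed to undo the transformation. Depth was estimated from the value of 1 read. Among values under 30 reads, 69.3% to 79.5% came within 0.05 of whole reads, too few for a count model. Libraries of a group never agreed within sampling noise (lowest chi-square per degree of freedom 10.5).

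Genes with a mean at least 1 above the lowest value (14249) were fitted with limma 3.58.1 in R 4.3.3, with a mean-variance trend, two-sided, with Benjamini-Hochberg adjustment over all genes at 0.05. A difference is Arl13b-null minus wild-type in mean variance-stabilised value. The fit was tested on simulated data with 200 changed genes; it called 4 unchanged genes with 6 libraries and 5 with 4. Members, gene lists and the 4 libraries were chosen with earlier results of these data known. Named are 12 listed members, paralogs with their parents, up to 5 members per direction with the smallest p in each fit, the 3 highest and lowest in level, the 3 widest and narrowest in range, and up to 4 genes per further list; Rps15, Rps18, Rpl23, Rpl36a, Rpl38, Rps21 and genes outside the rule were added after their values were seen. Transcript lengths come from GENCODE M21 (the APPRIS principal transcript), promoters from RefSeq; neither is of mm9, and no coordinate of the deposited table is used. Figures were drawn with matplotlib 3.10.9.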

Additional observations from a re-analysis of the deposited data

How the results depend on the processing

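The count of members past the threshold was 0 under every setting run, in the fit of 6 libraries and in that of 4. Over all genes, the fit of 6 libraries gave 0 calls, 3 with no filter, 214 with library weights and 0 to 4 without 1 library (4 without wild-type 1). The fit of 4 gave 36, with 1 without the filter, 59 after quantile normalization, 7 without the trend, 98 with robust moderation and 6 to 725 without 1 library. The median difference of the members over 6 libraries lay between −0.05 and 0.24 without 1 library. Over 4 libraries it was 0.10, and 0.085 after centring, 0.036 after quantile normalization and 0.10 to 0.11 without 1 library. The unadjusted calls of higher members, 30 of 80 over 4 libraries against 8.08% of all genes, numbered 9 without the trend, against 6.84%. Leaving out 1 of the 4 libraries sets 1 library against 2, with the spread taken from the group of 2. Fewer members were called in such fits.

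Single members changed sign as follows. Without 1 library the 6-library differences ran from −0.35 to 0.18 for Rplp0, −0.22 to 0.10 for Rps15a, −0.24 to 0.17 for Rps27 and −0.27 to 0.22 for Rps4x, and were above 0 only without Arl13b-null 2. With library weights they were 0.089 for Rplp0, 0.067 for Rps15a and 0.081 for Rps4x. Over 4 libraries Rpl15 ran from −0.13 to 0.084 (above 0 without wild-type 2 or Arl13b-null 3), Rpl34 from −0.091 to 0.021 (above 0 without wild-type 2) and Rpl31 from −0.019 to 0.011 (above 0 without wild-type 3 or Arl13b-null 1). The cause was not tested.

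Whether the replicate numbers pair the libraries could not be decided. Same-numbered libraries correlated at −0.714, −0.707 and 0.623 in their deviations from group means, and differently numbered ones at −0.691 to 0.713. Wild-type 1 and Arl13b-null 2 dominate these deviations, so a shared litter or batch could not be seen in them. With the replicate block 0 genes and 0 members passed and the members' median stayed 0.08. With 4 libraries no paired analysis was possible because the groups share 1 number. The share of counts taken by the members differed by −0.09 percentage points between groups, by −0.07 without the 100 highest other genes in the total or without Rplp0, and by −0.31 to 0.33 without 1 library.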
